A study of Mus musculus with 24 samples.

Results

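Ribosome-purified RNA was set against input RNA from the same tissue in embryos that lack Fgf20, using 12 of the 24 libraries of the series, chosen by their labelled genotype and collection method. The tissue was the ventral otocyst, the part of the embryonic inner ear that holds the cochlea, from mice of a C57BL/6J x 129X1/SvJ background at embryonic day 14.5. The genotype Fgf20-/- is called mut here and Fgf20+/- het. All groups carry L10a-eGFP, a ribosomal protein fused to a green fluorescent protein and expressed in the Fgf20-Cre lineage, so that an antibody against GFP pulls down ribosomes of those cells with the mRNA they hold. This method is translating ribosome affinity purification (TRAP). The comparison had 8 TRAP libraries of mut (numbers 2, 4, 6, 8, 10, 13, 14 and 16) and 4 libraries of mut labelled pre-TRAP (18, 20, 22 and 24), taken here as RNA not selected by the tag. The labels give both kinds of library the same protocol text, so the method of each was taken from its title. Every library came from 3 to 7 pooled embryos that shared a genotype. Each group was split evenly over 2 experiments, with 4 TRAP and 2 pre-TRAP libraries of mut in each. The het libraries, 8 TRAP and 4 pre-TRAP, were used to ask whether the difference depends on the genotype.

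FGF20 is a secreted growth factor made by the prosensory domain, the strip of cochlear epithelium that becomes the organ of Corti with its hair cells and supporting cells. Cells that once expressed Fgf20-Cre carry the tag from then on, as do their descendants. A TRAP library can therefore differ from its input in at least 2 ways at once. It favours the tagged cells over all others, and within those cells it favours RNA on ribosomes over RNA that is not being translated. The input holds these cells together with mesenchyme, cartilage of the otic capsule, neurons, glia, blood, vessels and melanocytes. In such bulk libraries, fewer cells of a type and less RNA per cell cannot be told apart. All values are shares of a library's RNA, so that a rise of some genes lowers the share of others.

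The 12 mut libraries held 30904630 to 53374796 counted reads each. Levels are given as counts scaled to library size (CPM), as the lowest, median and highest of the 8 TRAP libraries and as all 4 pre-TRAP libraries in the order 18, 20, 22 and 24. Method was the main axis of a principal component analysis (45.2% of the variance), and experiment the next (25.8%). TRAP library 6 lay closest to the pre-TRAP libraries on the first axis. Libraries 6 and 4 had the highest levels of mesenchyme and cartilage genes among the TRAP libraries, so gene group counts that rest on them are also given without both. Nothing in the labels says that the pools of a group came from separate litters, so p-values measure only the spread between these pools, which may be partly technical.

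The gene that was deleted and the gene that was tagged were read first. Fgf20 was counted in all 12 libraries: the 8 TRAP libraries had a lowest, median and highest level of 0.825, 2.44 and 3.02 CPM and the 4 pre-TRAP libraries 0.139, 0.289, 0.237 and 0.280 CPM. These ranges did not overlap, although the pre-TRAP values rest on only 5 to 14 reads per library. Fgf20 was 9.44-fold higher in TRAP (log2 fold change 3.24 ± 0.35 (SE), edgeR adjusted p = 7.57e-07). The mean level in TRAP was 2.24 ± 0.729 CPM (SD, n = 8) in mut and 4.19 ± 0.979 CPM (SD, n = 8) in het, so reads of the gene were counted in libraries labelled as null. Which part of the gene the null allele lacks is not given in the sources used here, so a count over the whole gene does not check the label. Rpl10a, the gene of the tagged protein, was at 494, 602 and 748 CPM in TRAP and 639, 934, 992 and 769 CPM in pre-TRAP. These ranges overlapped, and the log2 fold change was -0.42 ± 0.12 (SE) (edgeR adjusted p = 0.00585), with -0.56 within experiment 1 and -0.35 within experiment 2, where it was not called (edgeR adjusted p = 0.139). Whether reads of the tag construct were counted on Rpl10a cannot be told from the table.

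A large share of the genes tested differed between the purified RNA and its input. A gene was called when its Benjamini-Hochberg adjusted p in edgeR's quasi-likelihood test was under 0.05. Of 23140 genes tested, 11298 were called (48.8%), with 5667 higher in TRAP (24.5%) and 5631 lower (24.3%). At least 2-fold higher were 2696 genes (11.7%) and at least 2-fold lower 3028 (13.1%). Every TRAP library lay above every pre-TRAP library for 3003 genes (13%) and below for 3289 (14.2%). The median log2 fold change over all genes tested was 0.03. Each experiment on its own, with 4 libraries against 2, called fewer: 3534 genes higher and 3753 lower in experiment 1, and 3602 higher and 3781 lower in experiment 2. Of the genes called higher, 5464 had a positive log2 fold change in both experiments, and 5212 of those called lower had a negative one in both. Since about 1 gene in 4 was called in each direction, the counts for the gene groups that follow are to be read against 24.5% higher and 24.3% lower. The members of these groups were chosen with earlier results of these data known, so their counts and medians describe the groups and test nothing.

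**Figure D1:**
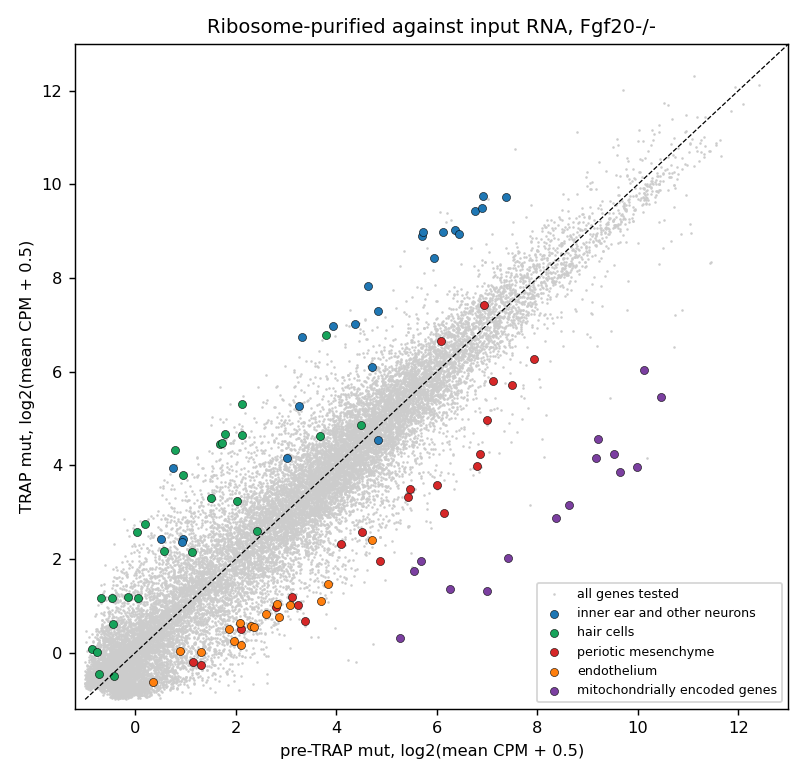
Mean level in TRAP (vertical) against mean level in pre-TRAP (horizontal), each as log2(mean CPM + 0.5), for the 23140 genes tested in mut, with 5 gene lists in colour and the dashed line marking equal levels. Neuronal and hair cell genes lie mostly above the line. Most mesenchymal genes, all 16 endothelial genes and all 15 listed mitochondrially encoded genes lie below it.

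With unnamed gene models and mitochondrial, ribosomal and histone genes left out, 7 of the 12 largest rises were of transcription factors, most of them known from neurons. Nhlh1, a helix-loop-helix factor of newly formed neurons, was at 25.1, 47.9 and 82.7 CPM in TRAP and 4.11, 1.92, 2.40 and 2.38 CPM in pre-TRAP. The groups did not overlap, and the 19.0-fold difference (log2 4.25 ± 0.26 (SE), edgeR adjusted p = 8.95e-10) was the largest rise among genes with a mean of at least 5 CPM. The log2 value was 4.20 within experiment 1 and 4.22 within experiment 2. Insm1, a zinc finger factor of neuronal progenitors and of outer hair cells, was at 8.62, 15.1 and 39.3 CPM in TRAP and 1.72, 0.826, 1.13 and 1.21 CPM in pre-TRAP. Its TRAP libraries spread more widely, yet all 8 stood above the 4 pre-TRAP libraries (log2 3.96 ± 0.39 (SE), edgeR adjusted p = 9.75e-07). The helix-loop-helix factors Msc (3.73), Bhlhe22 (3.61) and Nhlh2 (3.54), the zinc finger repressor Scrt2 (3.62) and the nuclear receptor Nr2e1 (3.61) followed in log2 fold change. The others among the top 12 were Fbll1 (3.63), a relative of the nucleolar methyltransferase fibrillarin, the little described Ccdc184 (3.63), the peptide hormone precursor Uts2b (3.62), the photoreceptor cadherin Cdhr1 (3.53) and the synaptic vesicle phosphoprotein Syn1 (3.51). All 12 were called, with edgeR adjusted p no higher than 9.75e-07. Timp1 lies inside Syn1 on the opposite strand, and whether the counting used strand is not given in the sources used here.

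**Figure D2:**
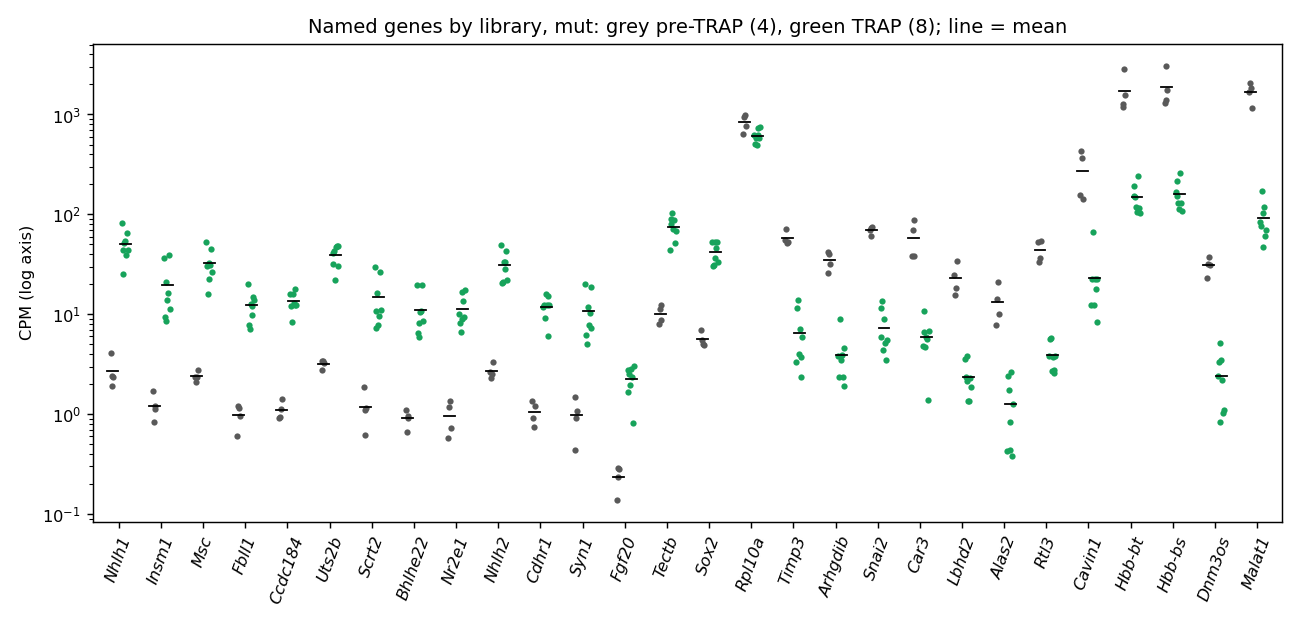
Level in CPM (vertical, log axis) of the 12 largest rises and the 12 largest falls outside mitochondrial, ribosomal, histone and unnamed genes, and of 4 genes always given, in the 4 pre-TRAP (grey) and 8 TRAP (green) libraries of mut, ordered by log2 fold change, with a line at each group mean. For these 24 changes the 2 groups of points do not overlap; for Rpl10a they do.

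Many neuronal genes, and some hair cell genes, are kept off in other tissues by the repressor REST, which binds a site called RE1 near their promoters. RefSeq promoter sequences (GRCm38.p6) were searched on both strands for the 16-base RE1 core in the 250 bases before each start. The core was in 7 of 32851 promoters (0.0213%). Of the 7 genes, 4 were tested here, and they are printed because 3 of them were called higher in TRAP, as were 24.5% of all genes tested. They were chosen after their values were seen, and a match of letters is no evidence of binding. Capitals mark the core, in which any base may stand at positions 9 and 10 from its 5′ end, or its reverse complement for Osbp2 and Fbll1, and each line runs 5′ to 3′ on the strand of the gene.
Lhx3: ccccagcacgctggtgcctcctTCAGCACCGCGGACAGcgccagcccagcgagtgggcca
Fbll1: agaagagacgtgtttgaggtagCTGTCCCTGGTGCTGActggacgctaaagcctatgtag
Osbp2: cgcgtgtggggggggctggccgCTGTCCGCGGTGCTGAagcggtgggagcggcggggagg
Ogdhl: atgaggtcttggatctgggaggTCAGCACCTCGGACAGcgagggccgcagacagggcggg
The windows were chr2:26208254-26208313 on the minus strand (Lhx3), chr11:35799035-35799094 on the minus strand (Fbll1), chr11:3774770-3774829 on the minus strand (Osbp2) and chr14:32321893-32321952 on the plus strand (Ogdhl).
Fbll1 was at 7.06, 12.4 and 19.9 CPM in TRAP and 0.610, 1.22, 1.16 and 0.953 CPM in pre-TRAP, with no overlap (log2 3.63 ± 0.30 (SE), edgeR adjusted p = 3.75e-08). Lhx3, a homeobox factor of hair cells and some neurons, was at 0.560, 1.91 and 2.96 CPM in TRAP and 0.222, 0.0826, 0 and 0.168 CPM in pre-TRAP (log2 3.94 ± 0.53 (SE), edgeR adjusted p = 8.32e-06), with only 0 to 8 reads per pre-TRAP library. It passed the filter on low counts through its TRAP libraries alone, so it could hardly have been called lower. Osbp2, an oxysterol-binding protein, had log2 2.27 ± 0.47 (SE) (edgeR adjusted p = 0.000606), with ranges that overlapped. Ogdhl, a mitochondrial dehydrogenase subunit, had log2 0.80 ± 0.33 (SE) and was not called (edgeR adjusted p = 0.0553), though it was without TRAP library 6, 10 or 13.

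Genes of the prosensory domain were higher in TRAP as a group. Of 16 prosensory genes, 14 rose and 1 fell, with a median log2 fold change of 1.41 (1.33 in experiment 1 alone and 1.43 in experiment 2 alone) beside 0.03 over all genes. Sox2, the transcription factor that specifies sensory progenitors, was at 30.3, 41.4 and 52.8 CPM in TRAP and 6.96, 5.51, 5.07 and 4.88 CPM in pre-TRAP. All TRAP libraries were above all pre-TRAP libraries (log2 2.91 ± 0.19 (SE), edgeR adjusted p = 1.51e-09). Sox2 lies within the long non-coding gene Sox2ot, whose own log2 value was -0.28 and was not called. Isl1 (2.71), a LIM homeobox factor that is also on the neuron list, the Fringe enzyme Lfng (2.00), the homeobox factor Prox1 (1.87), the zinc finger factor Gata3 (1.70) and the otic regulator Eya1 (1.21) rose by log2 fold change. The chromatin protein Hmga2 (1.37) and the Notch ligand Jag1 (0.72) rose as well. Cdkn1b, a cell cycle inhibitor that marks prosensory cells leaving the cycle, rose (0.38), but this call was lost without TRAP library 2, 8, 10, 13, 14 or 16 or pre-TRAP library 18, 20 or 24. The Wnt receptor partner Lgr5 had 0.27 ± 0.18 (SE) and was not called (edgeR adjusted p = 0.229). The member that fell was Fgfr1, the main FGF receptor of the prosensory domain, at 17.2, 21.6 and 25.4 CPM in TRAP and 44.4, 49.7, 46.6 and 39.6 CPM in pre-TRAP (log2 -1.06 ± 0.13 (SE), edgeR adjusted p = 2.07e-06).

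Hair cell genes were higher in TRAP, with a higher median than the prosensory group. Of 30 listed genes, 26 passed the filter on low counts, of which 23 rose and none fell, with a median of 2.59 (2.70 and 2.62 in experiments 1 and 2 alone). In 18 of the 26, every TRAP library was above every pre-TRAP library (13% of all genes tested). Tmc1, Tmc2, Chrna10 and Slc17a8, genes of mechanotransduction, efferent input and the hair cell synapse, did not pass the filter. A gene could pass it through its TRAP libraries alone, as Lhx3 did, and such a gene could hardly be called lower. The count and the median of the list may lean higher through such members. Atoh1, which turns prosensory cells into hair cells, was at 3.79, 5.78 and 7.36 CPM in TRAP and 0.555, 0.289, 0.682 and 0.589 CPM in pre-TRAP. The groups did not overlap (log2 3.40 ± 0.29 (SE), edgeR adjusted p = 3.92e-08). Pou4f3, a POU factor needed for hair cell survival, was at 12.2, 21.5 and 29.0 CPM in TRAP and 3.22, 2.66, 2.37 and 2.52 CPM in pre-TRAP, again with 8.16-fold higher levels and no overlap (log2 3.03 ± 0.25 (SE), edgeR adjusted p = 2.55e-08). The zinc finger factor Gfi1 had a log2 fold change of 2.85. Among genes of the hair bundle and its cytoskeleton, Espn (3.29), Grxcr1 (3.12), Pcdh15 (2.03) and Cib2 (0.91) rose, while Myo7a (0.24 ± 0.26 (SE), edgeR adjusted p = 0.466) and Cdh23 (-0.21 ± 0.51 (SE), edgeR adjusted p = 0.762) were not called. Smpx (3.32), Acbd7 (3.29), Mreg (3.02) and Rasd2 (2.98), less described genes of young hair cells, rose by similar log2 fold changes. The neuronal list rose over the same libraries, as given below, and neurons share Insm1, Lhx3 and Srrm4 (2.69) with hair cells. The part of neurons in the hair cell values was not tested.

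Supporting cell genes were split. Of 18, 9 rose and 4 fell, with a median of 0.72 (0.48 without pre-TRAP library 24). Prox1, Hey2, Lfng and Lgr5 are also on the prosensory list. The calcium-binding protein S100a1 (2.39), the gap junction subunit Gjb2 (1.51), the neurotrophin receptor Ngfr (1.40), the Notch target Hey2 (1.04) and Sox10 (1.40) rose. The glutamate transporter Slc1a3 (-0.94), Fgfr3 (-1.47), Sox9 (-0.92), which cartilage also expresses, and Fabp7 fell. Fabp7, a fatty acid binding protein of glia and supporting cells, was at 9.88, 14.3 and 18.0 CPM in TRAP and 88.8, 107, 151 and 108 CPM in pre-TRAP. All TRAP libraries were below all pre-TRAP libraries (log2 -3.00 ± 0.16 (SE), edgeR adjusted p = 1.84e-10).

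Genes of the medial Kolliker organ, the epithelium beside the prosensory domain, were mostly higher, and those of the roof mostly lower. Of 10 Kolliker organ genes, 8 rose and 1 fell (median 0.90), led by the calcium buffer Calb1 at 96.0, 183 and 201 CPM in TRAP and 21.9, 14.5, 17.8 and 21.2 CPM in pre-TRAP (log2 3.09 ± 0.20 (SE), edgeR adjusted p = 1.22e-09). Fgf10, a ligand of the cochlear floor, was at 95.6, 116 and 161 CPM in TRAP and 23.4, 15.3, 13.1 and 22.1 CPM in pre-TRAP (log2 2.80 ± 0.15 (SE), edgeR adjusted p = 1.84e-10). Neither gene's groups overlapped. The list shares Jag1 with the prosensory list, Dcn with the mesenchyme list, and Tecta and Otoa with the list of tectorial and otolithic membrane genes. Crabp1, a retinoic acid binding protein, fell (-1.17), and the proteoglycan Epyc had 0.22 ± 0.18 (SE) and was not called (edgeR adjusted p = 0.348). Of 11 genes of the roof and other non-sensory epithelium, 2 rose, Fgf9 (1.05) and Hmx2 (0.79), and 6 fell (median -0.64). The call of Hmx2 was lost without TRAP library 10 or pre-TRAP library 18, 22 or 24. Oc90, the main protein of otoconia and a product of the roof, was at 81.0, 162 and 244 CPM in TRAP and 301, 548, 568 and 302 CPM in pre-TRAP, 2.54-fold lower (log2 -1.34 ± 0.22 (SE), edgeR adjusted p = 0.000133). The homeobox factors Otx1 (-1.34), Otx2 (-0.65) and Lmx1a (-0.64), the zinc finger factor Gata2 (-0.66) and the ligand Bmp4 (-1.19) fell too.

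Transcription factors that pattern the otocyst moved in both directions, 7 of 16 higher and 5 lower (3 lower without pre-TRAP library 18). Tbx2, a T-box factor, had the largest rise of the list, at 8.77, 17.1 and 41.6 CPM in TRAP and 3.44, 1.98, 2.91 and 4.37 CPM in pre-TRAP (log2 2.68 ± 0.25 (SE), edgeR adjusted p = 1.22e-07). Dlx5, a homeobox factor of the dorsal otocyst, fell (-1.51). Pax2 had 0.47 ± 0.29 (SE) and was not called (edgeR adjusted p = 0.204).

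Extracellular matrix made by the cochlear floor was higher in TRAP. Tectb, the gene of beta-tectorin, a glycoprotein of the tectorial membrane, was at 44.3, 75.6 and 103 CPM in TRAP and 7.93, 11.3, 12.2 and 8.72 CPM in pre-TRAP (log2 2.93 ± 0.22 (SE), edgeR adjusted p = 1.19e-08), with no overlap. Of 7 genes for the gels that cover the sensory patches of the ear, 6 rose, among them Tecta (2.49), Otoa (1.60) and Otog (1.03), and the otoconial Oc90 alone fell. Of 26 epithelial genes, 21 rose and none fell (median 1.09). The largest of these rises were in the recycling GTPase Rab25 (1.89), the tight junction protein Marveld3 (1.83) and Fbxo2 (1.79), an F-box protein of the cochlear epithelium. The adhesion molecule Epcam was at 42.5, 54.3 and 61.8 CPM in TRAP and 12.4, 17.8, 23.2 and 14.2 CPM in pre-TRAP (log2 1.71 ± 0.15 (SE), edgeR adjusted p = 7.66e-08). The keratins Krt18 (0.18 ± 0.15 (SE)) and Krt19 (0.19 ± 0.15 (SE)), the claudin Cldn4 (-0.09 ± 0.25 (SE)) and the polarity scaffold Patj (-0.16 ± 0.14 (SE)) were not called.

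**Figure D3:**
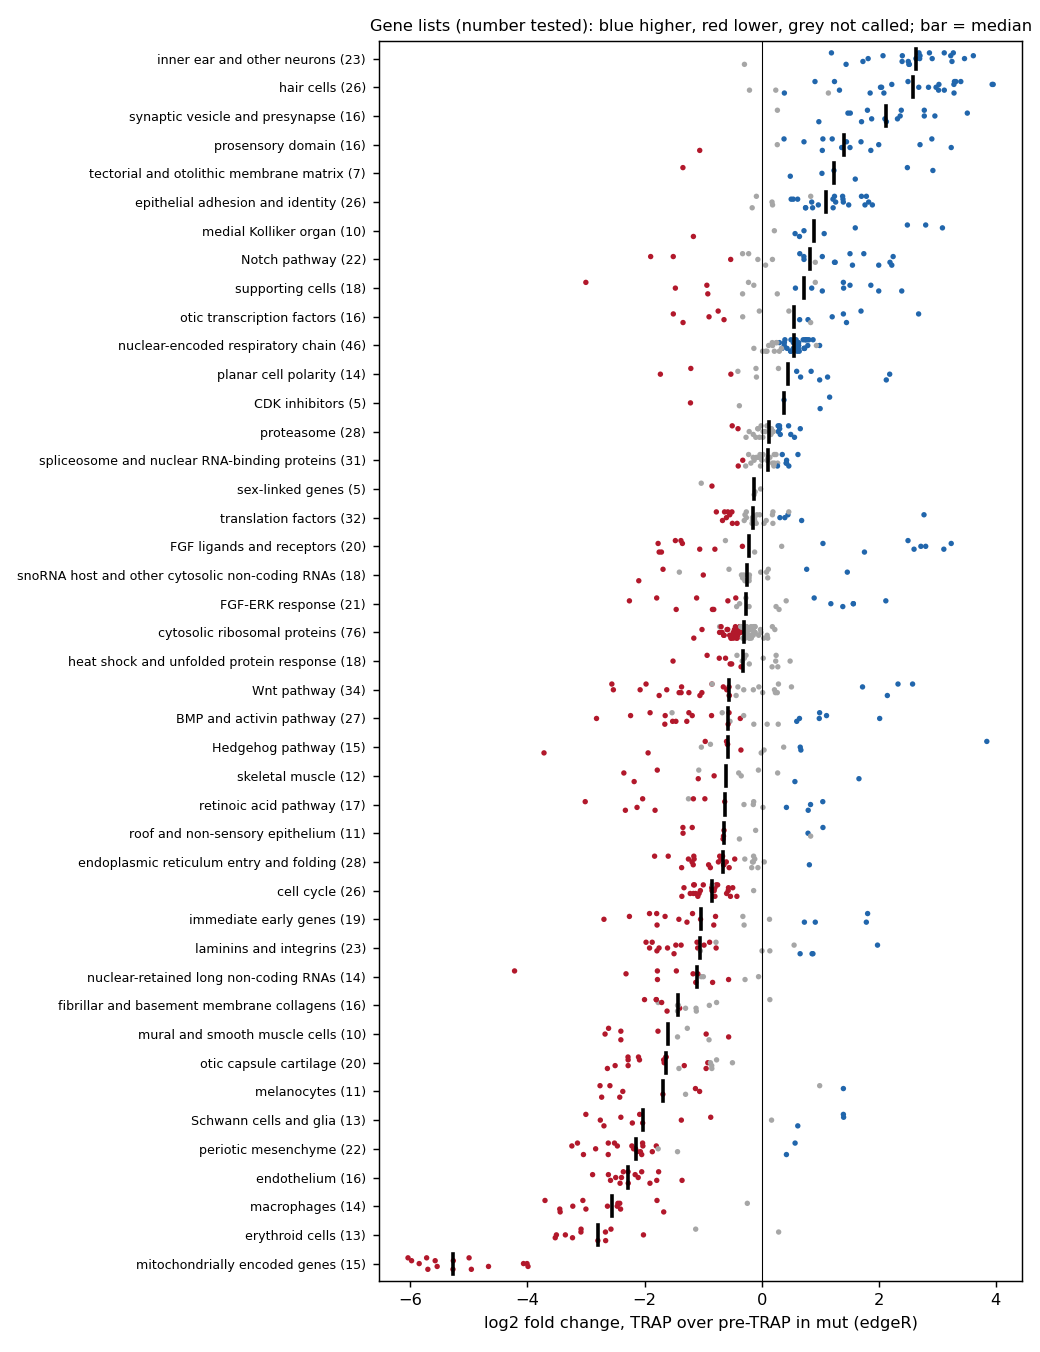
Log2 fold change of TRAP over pre-TRAP in mut (horizontal) for each tested member of 43 gene lists, with the number tested beside each name, blue for members called higher, red for members called lower, grey for the rest, and a black bar at the list median. Neurons, hair cells and presynapse have the highest medians, and mitochondrially encoded genes, erythroid cells and macrophages the lowest.

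Neuronal genes were higher in TRAP, with a median close to that of the hair cell list. Of 23 neuronal genes that passed the filter, 22 rose and none fell, with a median of 2.64 (2.63 in experiment 1 alone, 2.61 in experiment 2 alone). The mean level of the list, as log2(CPM + 0.5), was 6.30 to 6.75 over the TRAP libraries and 4.13 to 4.43 over the pre-TRAP libraries. Shox2, a homeobox factor of cranial sensory neurons, was at 65.4, 90.8 and 169.7 CPM in TRAP and 10.5, 9.09, 8.49 and 9.84 CPM in pre-TRAP. The groups did not overlap (log2 3.47 ± 0.22 (SE), edgeR adjusted p = 1.25e-09). Neurod1, a factor of newly delaminated ear neurons, was at 102, 118 and 177 CPM in TRAP and 17.9, 17.0, 11.6 and 12.4 CPM in pre-TRAP (log2 3.12 ± 0.19 (SE), edgeR adjusted p = 5.52e-10). Stmn2, a microtubule regulator of growing axons, was at 696, 892 and 1061 CPM in TRAP and 119, 135, 116 and 113 CPM in pre-TRAP (log2 2.87 ± 0.14 (SE), edgeR adjusted p = 1.54e-10). In all 3 genes each TRAP library exceeded each pre-TRAP library. The neurofilament genes Nefl (2.52), Nefm (2.69) and Nefh (2.40), the neuronal tubulin Tubb3 (2.40), the growth cone protein Gap43 (2.64) and the POU factor Pou4f1 (2.91) rose as well. Neurog1, which starts neurogenesis in the otocyst, did not pass the filter and had no read in 2 TRAP libraries and 1 pre-TRAP library. Of the neurotrophin receptors, Ntrk3 rose (1.19) and Ntrk2 had -0.29 ± 0.12 (SE) and was not called (edgeR adjusted p = 0.0537), though it was called lower without TRAP library 2, 4, 6 or 8 or pre-TRAP library 18 or 24. Of 16 genes of the synaptic vesicle and presynapse, 15 rose (median 2.12), with the vesicle protein Syp at 2.39, the complexin Cplx1 at 2.78 and the vesicular glutamate transporter Slc17a6 at 2.37. The presynaptic scaffold Pclo (0.27 ± 0.24 (SE), edgeR adjusted p = 0.384) was not called. The labels place the tag in the Fgf20-Cre lineage and do not say whether neurons belong to it.

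Genes of the mesenchyme around the otocyst were lower. Of 22, 18 fell and 2 rose, with a median of -2.14. Snai2, a zinc finger repressor of mesenchyme, was at 3.46, 5.75 and 13.7 CPM in TRAP and 70.4, 73.3, 60.8 and 74.4 CPM in pre-TRAP. All TRAP libraries were below all pre-TRAP libraries, 9.46-fold on the fitted scale (log2 -3.24 ± 0.31 (SE), edgeR adjusted p = 2.11e-06). Pou3f4, a POU factor of periotic mesenchyme and a deafness gene, was at 22.9, 30.1 and 39.8 CPM in TRAP and 134, 128, 136 and 115 CPM in pre-TRAP (log2 -2.03 ± 0.14 (SE), edgeR adjusted p = 4.39e-09). The homeobox factors Prrx1 (-2.62) and Meox2 (-3.15), the odd-skipped factor Osr1 (-3.04), the T-box factor Tbx18 (-2.46) and the secreted Otor (-2.83) fell. The members that rose were the small proteoglycans Dcn (0.57), which is also on the Kolliker organ list, and Lum (0.42). The call of Lum was lost when TRAP library 4, 6, 8 or 10, or any 1 of the 4 pre-TRAP libraries, was left out.

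Cartilage genes fell too, and the count of collagens that fell rested on 1 library. Of 20 cartilage genes, 14 fell and none rose (median -1.63). Matn1, a matrilin of cartilage matrix, was at 46.1, 64.8 and 371 CPM in TRAP and 450.2, 657, 470.0 and 465 CPM in pre-TRAP (log2 -2.28 ± 0.52 (SE), edgeR adjusted p = 0.00456). Col2a1, the main cartilage collagen, was at 240.0, 312 and 4042 CPM in TRAP and 1355, 1808, 1112 and 919.6 CPM in pre-TRAP. These ranges overlapped, and the log2 value of -0.85 ± 0.80 (SE) was not called (edgeR adjusted p = 0.414). The highest TRAP value was that of library 6, and without libraries 4 and 6 the log2 fold change was -2.13 (edgeR adjusted p = 4.88e-09). Among 16 fibrillar and basement membrane collagens, 6 fell in the full comparison, 15 without TRAP library 6 and 14 without libraries 4 and 6, with the median moving from -1.43 to -2.21. In experiment 1, which holds library 6, 1 of these collagens was called lower, and in experiment 2, 13. Cartilage counts moved from 14 to 19 without both libraries. Of 23 laminin and integrin subunits, 14 fell and 4 rose. Those that rose were the epithelial integrins Itgb6 (1.98) and Itgb4 (0.88), Itga8 (0.86) and Lama5 (0.66). Without pre-TRAP library 18 or 24 the calls of Itgb4 and Lama5 were lost, and that of Lama5 also without TRAP library 6 or pre-TRAP library 20.

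Genes of the endothelium, blood and macrophages were among the most depleted, and most mural cell and melanocyte genes fell as well. All 16 endothelial genes fell, with a median of -2.28. The mean level of that list was 0.26 to 1.01 over TRAP and 2.36 to 2.47 over pre-TRAP libraries. Emcn, a sialomucin of capillaries and veins, was at 0.495, 2.03 and 3.76 CPM in TRAP and 11.0, 16.1, 14.4 and 13.8 CPM in pre-TRAP (log2 -2.62 ± 0.29 (SE), edgeR adjusted p = 1.73e-06). Of 10 mural cell genes, 7 fell, among them the pericyte gene Rgs5 (-2.61). Of 13 erythroid genes, 11 fell (median -2.80). Hbb-bs, an adult beta globin, was at 108, 142 and 257 CPM in TRAP and 1317, 1387, 3079 and 1749 CPM in pre-TRAP, with no overlap (log2 -3.52 ± 0.26 (SE), edgeR adjusted p = 1.05e-07). Hbb-bs and Hbb-bt, like Hba-a1 and Hba-a2, are near-identical copies, so their separate values are uncertain. All 7 globin genes together took 0.0672 to 0.145% of the reads in TRAP and 0.710 to 1.42% in pre-TRAP. Of 14 macrophage genes, 13 fell (median -2.55), with the microglial and macrophage protein Aif1 at -3.70 and the complement subunit C1qb at -2.46. Of 11 melanocyte genes, 8 fell (median -1.69). Dct, a melanin synthesis enzyme, was at 0.812, 15.3 and 62.9 CPM in TRAP and 285, 9.93, 10.2 and 466 CPM in pre-TRAP, with ranges that overlapped. The 2 pre-TRAP libraries of experiment 2 (18 and 24) stood far above those of experiment 1, and the log2 fold change was -2.76 ± 0.28 (SE) with experiment as a covariate (edgeR adjusted p = 3.11e-06), -2.64 within experiment 1 and -2.92 within experiment 2. The melanocyte member that rose was Sox10, which otic epithelium also expresses.

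Most glial genes fell, and muscle genes gave mixed counts. Of 13 Schwann cell and glial genes, 9 fell and 3 rose (median -2.03). Those that fell included the myelin protein Pmp22 (-2.75) and the calcium-binding S100b (-2.40). Cdh19 and Foxd3, markers of Schwann cell precursors, had no read in 4 and 2 of the 8 TRAP libraries. Those that rose were Sox10, Ngfr and Erbb3 (0.62), of which Sox10 and Ngfr are also on the supporting cell list. Of 12 skeletal muscle genes, 5 fell and 2 rose. Without TRAP library 14 or pre-TRAP library 20, 3 fell. The cardiac actin Actc1 (1.66) and the myosin light chain Mylpf (0.57) were the 2 that rose, and the call of Mylpf was lost without TRAP library 8 or pre-TRAP library 20, 22 or 24.

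**Figure D4:**
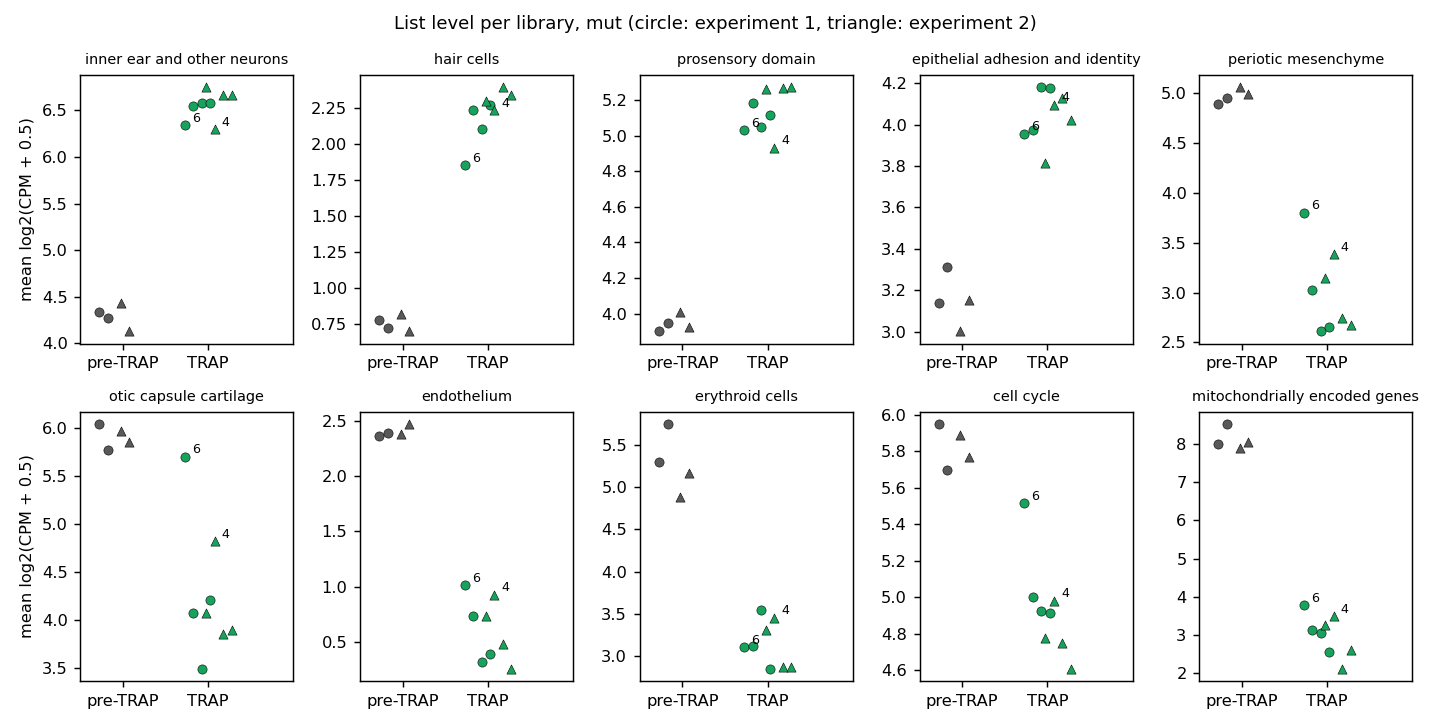
Mean log2(CPM + 0.5) over the members of 10 gene lists (vertical) in each mut library, pre-TRAP in grey and TRAP in green, circles for experiment 1 and triangles for experiment 2, with TRAP libraries 4 and 6 numbered. Members that did not pass the filter on low counts are included in the means. In every panel the TRAP and pre-TRAP libraries separate, and library 6 lies nearest to the pre-TRAP libraries in the hair cell, mesenchyme, cartilage, endothelium, cell cycle and mitochondrial panels.

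Outside mitochondrial, ribosomal, histone and unnamed genes, the 12 largest falls among genes with a mean of at least 5 CPM were led by a nuclear RNA and included genes of mesenchyme and blood. Malat1, a long non-coding RNA kept in nuclear speckles, was at 47.5, 80.5 and 173 CPM in TRAP and 1674, 2066, 1839 and 1157 CPM in pre-TRAP. It was 18.6-fold lower with no overlap (log2 -4.22 ± 0.20 (SE), edgeR adjusted p = 1.66e-10) and had log2 values of -4.11 and -4.40 within experiments 1 and 2. The next were Dnm3os (-3.67), a non-coding RNA of mesenchyme that lies antisense within Dnm3, the 2 globins, the caveolar protein Cavin1 (-3.50), Rtl3 (-3.48), a retrotransposon-derived gene, and the heme synthesis enzyme Alas2 (-3.35). Lbhd2 (-3.28), the carbonic anhydrase Car3 (-3.26), Snai2, the blood cell regulator Arhgdib (-3.16) and the protease inhibitor Timp3 (-3.15) completed the set. All 12 were called, with edgeR adjusted p no higher than 6.85e-05.

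Mitochondrially encoded RNA, which cytosolic ribosomes do not translate, and nuclear RNAs were lower in TRAP. All 15 listed genes of the mitochondrial genome fell, with a median of -5.27, the lowest of the 43 lists (-5.36 and -5.56 in experiments 1 and 2 alone). The list leaves out the mitochondrial transfer RNAs. mt-Co3, a subunit of cytochrome oxidase made on mitochondrial ribosomes, was at 13.3, 47.9 and 69.7 CPM in TRAP and 935, 1606, 1880.0 and 1195 CPM in pre-TRAP. The groups did not overlap (log2 -4.96 ± 0.37 (SE), edgeR adjusted p = 7.46e-07). All 37 mitochondrially encoded genes, listed or not, together took 0.0101 to 0.0382% of the reads in TRAP, highest in library 4, and 0.638 to 0.897% in pre-TRAP. Copies of mitochondrial genes in the nuclear genome can share their reads. Of 14 nuclear-retained long non-coding RNAs, 10 fell and none rose (median -1.11), with the paraspeckle RNA Neat1 (-2.32) and the imprinted Meg3 (-1.12) and Rian (-1.46) among them. Miat had -0.05 ± 0.23 (SE) and was not called (edgeR adjusted p = 0.871). Cytosolic non-coding RNAs and snoRNA hosts did not fall as a group: of 18, 2 rose and 3 fell (median -0.25, and 5 fell without pre-TRAP library 18). The snoRNA host Gas5 had -0.21 ± 0.18 (SE) and was not called (edgeR adjusted p = 0.366). H19, an imprinted non-coding RNA abundant in mesenchyme, was at 294, 526 and 709 CPM in TRAP and 2314, 1910.0, 2262 and 2069 CPM in pre-TRAP (log2 -2.10 ± 0.19 (SE), edgeR adjusted p = 8.5e-08). By RefSeq class, 14 of 16 small nuclear RNAs fell (median -2.34), while 1262 long non-coding RNAs had 355 members higher and 234 lower (median 0.26).

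Ribosomal protein genes were slightly lower and nuclear-encoded respiratory chain genes slightly higher. Of 76 cytosolic ribosomal protein genes, 34 fell and none rose (median -0.30), and 18 fell without pre-TRAP library 22. Their share of all reads was 6.15 to 7.58% in TRAP and 7.71 to 9.63% in pre-TRAP. Rpsa (-1.16) and Rplp0 (-1.02) had the largest falls, and many ribosomal protein genes have processed copies that can share reads. Among 32 translation factors, 9 fell, with the poly(A)-binding protein Pabpc1 at -0.77, and 5 rose (3 without TRAP library 2 or pre-TRAP library 18 or 24, and 2 without pre-TRAP library 20). Eef1a2, the elongation factor of neurons and muscle, had the largest of these rises, at 3.58, 5.20 and 6.79 CPM in TRAP and 1.22, 0.537, 0.623 and 0.645 CPM in pre-TRAP (log2 2.77 ± 0.27 (SE), edgeR adjusted p = 2.28e-07). Of 46 nuclear-encoded respiratory chain subunits, 33 rose and none fell (median 0.55), the opposite direction from the mitochondrially encoded subunits of the same complexes. Uqcrq of complex III (0.99) and Cox6b1 of complex IV (0.88) were the largest of these rises. Experiment 1 alone called 9 of the 46 higher and experiment 2 alone 21.

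Genes for entry into the endoplasmic reticulum fell. Of 28, 19 fell and 1 rose (median -0.66). Sec61a1, the channel subunit of the translocon, was at 15.7, 23.1 and 37.2 CPM in TRAP and 81.7, 105, 67.5 and 76.9 CPM in pre-TRAP. All TRAP libraries lay below all pre-TRAP libraries (log2 -1.83 ± 0.17 (SE), edgeR adjusted p = 7.66e-08). The disulfide isomerase P4hb (-1.59), the oligosaccharyltransferase subunits Rpn2 (-1.37), Ddost (-1.16) and Stt3a (-1.15) and the signal peptidase subunit Spcs3 (-1.25) fell as well. The member that rose was Srp14 (0.82), a cytosolic subunit of the signal recognition particle, while Sec61b (-0.12 ± 0.17 (SE)) and Sec61g (-0.15 ± 0.18 (SE)), the small translocon subunits, were not called. Of 18 heat shock and unfolded protein genes, 7 fell and none rose (1 without TRAP library 6), with the endoplasmic reticulum chaperone Hspa5 at -0.93. Proteasome subunits and splicing factors lay close to the middle of all genes. Of 28 proteasome subunits, 9 rose and 2 fell (median 0.12, between 0.047 and 0.151 with any 1 library left out), with 4 or 5 higher when TRAP library 2, 4, 8 or 13 or any 1 pre-TRAP library was left out and 1 lower without pre-TRAP library 20. Of 31 splicing factors, 7 rose and 2 fell (median 0.10, between 0.029 and 0.125 with any 1 library left out), with 4 higher without pre-TRAP library 18 and 2 without 24. None of the 2 falls was called without TRAP library 14 or 16 or pre-TRAP library 18, 20 or 24, and 1 was called without TRAP library 10 or 13.

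Among FGF genes, 7 ligands rose, 3 ligands fell and 4 signalling receptors fell. FGFs signal from one cell to the next through receptor tyrosine kinases and the ERK cascade, whose output includes Spry, Dusp and Etv genes. Of 20 ligands, receptors and adaptors, 8 rose and 9 fell. Besides Fgf20 and Fgf10, the ligands Fgf5 (3.11), Fgf3 (2.72), Fgf15 (2.60) and Fgf9 (1.05) rose, with the adaptor Frs3 (1.76). The ligands Fgf2 (-1.77), Fgf7 (-1.71) and Fgf18 (-1.38) and the receptors fell. Besides Fgfr1, Fgfr2 was at 5.17, 8.72 and 14.1 CPM in TRAP and 30.6, 31.7, 27.4 and 28.3 CPM in pre-TRAP (log2 -1.75 ± 0.22 (SE), edgeR adjusted p = 5.09e-06). Fgfr3 (-1.47) and Fgfr4 (-1.35) fell as well. Of 21 genes of the FGF-ERK response, 6 rose and 8 fell (median -0.27). The phosphatases Dusp4 (2.12), Dusp5 (1.57) and Dusp14 (1.39), the inhibitors Spred3 (1.57) and Spry1 (1.18) and the ETS factor Etv4 (0.90) rose. Etv1 (-1.46), Etv5 (-0.58) and Spry4 (-0.84) fell, and Dusp6 (-0.27 ± 0.12 (SE), edgeR adjusted p = 0.08) and Spry2 (-0.21 ± 0.33 (SE), edgeR adjusted p = 0.621) were not called. Without TRAP library 4 or 6, Dusp6 was called lower.

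Notch genes were mostly higher. In this pathway a ligand on one cell binds a receptor on its neighbour, whose cleaved tail switches on Hes and Hey repressors and keeps supporting cells from becoming hair cells. Of 22 genes, 13 rose and 3 fell (median 0.82). Experiment 1 alone called 7 higher. The ligands Dll1 (2.22), Dll3 (1.75) and Jag2 (1.25) and the Fringe enzymes Mfng (0.65) and Rfng (0.72) rose, and the vessel ligand Dll4 fell (-1.90). Of the receptors, Notch2 fell (-1.51), Notch4 rose (1.26) and Notch3 (-0.06 ± 0.16 (SE)) was not called. Of the targets, Hey1, a mark of the prosensory domain, was at 28.5, 44.2 and 49.0 CPM in TRAP and 16.9, 11.7, 12.9 and 17.2 CPM in pre-TRAP (log2 1.51 ± 0.15 (SE), edgeR adjusted p = 3.05e-07). The neurogenic Hes6 (1.55) rose, and Hes1 (0.18 ± 0.15 (SE)) was not called.

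More Wnt and BMP genes fell than rose. Of 34 Wnt pathway genes, 17 fell and 4 rose (median -0.56). The ones that rose were secreted: Wnt3 (2.58), Wnt7a (2.15), Wnt7b (2.33) and the enhancer Rspo2 (1.72). Lef1, a nuclear effector of Wnt signals, was at 9.20, 12.7 and 19.3 CPM in TRAP and 87.1, 73.8, 75.1 and 81.5 CPM in pre-TRAP, with no overlap (log2 -2.53 ± 0.17 (SE), edgeR adjusted p = 2.99e-09). The effector Tcf7l2 (-1.97), the inhibitor Dkk2 (-2.56) and the co-receptor Lrp6 (-0.85) fell, and Axin2, a common target, had -0.05 ± 0.14 (SE) and was not called. Of 27 BMP and activin genes, 14 fell and 6 rose (median -0.57). The ligands Bmp5 (-2.82), Gdf6 (-1.91), Inhba (-1.65), Bmp2 (-1.24) and Bmp4 fell. The activin receptors Acvr2a (1.11) and Acvr2b (0.98) rose. The Id genes, which are targets, split: Id4 (2.02) and Id2 (0.99) rose, Id3 fell (-0.85) and Id1 had 0.10 ± 0.14 (SE) and was not called.

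Hedgehog, retinoic acid and planar polarity genes moved in both directions. Of 15 Hedgehog genes, 3 rose and 7 fell. Shh, a ligand made by young neurons of the spiral ganglion, was at 1.48, 1.98 and 4.12 CPM in TRAP and 0.111, 0.145, 0.237 and 0.112 CPM in pre-TRAP. The groups did not overlap, with 4 to 8 reads per pre-TRAP library (log2 3.85 ± 0.37 (SE), edgeR adjusted p = 1.64e-07). Shh passed the filter on low counts through its TRAP libraries alone, so it could hardly have been called lower. The transcription factors Gli2 (0.66) and Gli3 (0.67) rose, and the target Gli1 (-0.58), the transducer Smo (-0.60) and the inhibitor Hhip (-1.94) fell. The mesenchymal target Foxf1 had no read in 4 of the 8 TRAP libraries. The receptor Ptch1 had 0.04 ± 0.17 (SE) and was not called. Of 17 retinoic acid genes, 8 fell and 4 rose. The synthesis enzyme Aldh1a2 fell (-3.01) and its relative Aldh1a3 rose (0.84), the binding protein Crabp2 rose (1.04), and the receptors Rarb (-2.33) and Rarg (-2.03) fell. Of 14 planar polarity genes, 7 rose and 3 fell. The cadherins Celsr1 (2.19), Celsr2 (1.13) and Celsr3 (2.13) and the membrane protein Vangl2 (0.60) rose, and Vangl1 (-1.21) and Prickle1 (-1.73) fell.

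Cell cycle genes were lower. Of 26 genes of DNA synthesis and mitosis, 24 fell and none rose (median -0.85, with -0.71 and -1.05 in experiments 1 and 2 alone). Plk1, a kinase that drives mitosis, was at 9.96, 14.8 and 17.9 CPM in TRAP and 46.0, 30.9, 33.1 and 40.2 CPM in pre-TRAP. These ranges did not overlap (log2 -1.36 ± 0.14 (SE), edgeR adjusted p = 4.67e-07). The replication clamp Pcna (-0.14 ± 0.11 (SE), edgeR adjusted p = 0.329) was not called. Of 5 CDK inhibitors tested, 3 rose, Cdkn1a (1.16), Cdkn2d (1.00) and Cdkn1b, and Cdkn1c fell, from 503 ± 155 CPM in pre-TRAP (SD, n = 4) to 212 ± 65.0 CPM in TRAP (SD, n = 8; log2 -1.22 ± 0.13 (SE), edgeR adjusted p = 6.59e-07). Of 19 immediate early genes, 12 fell, Egr1 (-2.26) and Fos (-1.79) among them, and 4 rose, Jund (1.81), Jun (0.92), Dusp1 (1.79) and Ier2 (0.73, a call lost without pre-TRAP library 20). Of 5 sex-linked genes, Ddx3y was called lower (-0.85). That call was lost without any 1 of 6 TRAP libraries (2, 8, 10, 13, 14 and 16) and without pre-TRAP library 20, 22 or 24. Xist, also on this list, had no read in 1 pre-TRAP library. The sex of the pooled embryos was not part of the comparison, and its part in the Ddx3y value was not tested.

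The same comparison in het asked whether the difference depends on Fgf20. In het, 4042 of 23201 genes tested were higher in TRAP (17.4%) and 5217 lower (22.5%). Of 22533 genes tested in both genotypes, 3765 were called higher in both, which is 67.3% of the 5598 called higher in mut and 93.8% of the 4015 in het. Called lower in both were 4433, which is 80% of the 5539 in mut and 88% of the 5036 in het. No gene was called in opposite directions. The difference itself was tested as an interaction of genotype and method over all 24 libraries. edgeR called none of 24242 genes, with 291 (1.2%) at an unadjusted p under 0.05 and a lowest adjusted p of 0.984. DESeq2 called none either, with 322 genes at an unadjusted p under 0.05. The median SE of the interaction was 0.34 on the log2 scale, so small differences between the genotypes were not detectable. Larger ones, such as those of Gata2 and Epyc given below, were not called by edgeR either. The absence of calls is therefore no evidence that the genotypes are alike.

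The lists were set side by side in both genotypes. The hair cell median was 2.59 in mut and 2.15 in het, the neuron median 2.64 and 2.58, the mesenchyme median -2.14 and -2.46, and the mitochondrial median -5.27 and -5.81. The widest gap of the 43 lists was that of Schwann cells and glia, with -2.03 in mut (13 tested) and -0.98 in het (12 tested). Erythroid cells followed, with -2.80 (13 tested) and -3.46 (11 tested). In both lists the medians rest on different members in the 2 genotypes. Gene by gene, the median interaction was only 0.12 for Schwann cells and glia, opposite in sign to the gap, and 0.07 for erythroid cells. No member of either list had an unadjusted interaction p under 0.05 in edgeR. Supporting cells had 0.72 and 0.25, and BMP and activin genes -0.57 and -1.07. These differences between list medians were not tested. Tectb shows how a level and a TRAP difference can part. Its TRAP level was 74.4 ± 19.8 CPM in mut and 276 ± 29.4 CPM in het (SD, n = 8 each), and its pre-TRAP level 10.1 ± 2.06 CPM and 38.2 ± 11.7 CPM (SD, n = 4 each). The log2 fold change of TRAP over pre-TRAP was 2.93 in mut and 2.88 in het, and the interaction was 0.02 ± 0.24 (SE) (edgeR adjusted p = 1). For Fgf20 the log2 values were 3.24 and 2.32, with an interaction of 0.97 ± 0.49 (SE) (unadjusted p = 0.0601, edgeR adjusted p = 1). Among list members, of which 816 were tested in mut, 4 had an unadjusted interaction p under 0.01, and none passed adjustment. Over all genes only 1.2% had an unadjusted interaction p under 0.05 in edgeR. How many list members under 0.01 chance alone would give was not tested. Over the FGF-ERK response list the median interaction was 0.02, and 3 members had an unadjusted p under 0.05. The 4 members are given next. Gata2 was at -0.66 in mut and -1.62 in het (interaction 0.94 ± 0.20 (SE), edgeR adjusted p = 0.984), and limma voom called it. Epyc was at 0.22 and -0.98 (interaction 1.19 ± 0.32 (SE), edgeR adjusted p = 1). The FGF response genes Dusp6 (-0.27 and 0.41, interaction -0.70 ± 0.22 (SE), edgeR adjusted p = 1) and Etv5 (-0.58 and -0.03, interaction -0.57 ± 0.18 (SE), edgeR adjusted p = 1) had lower values in mut.

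**Figure D5:**
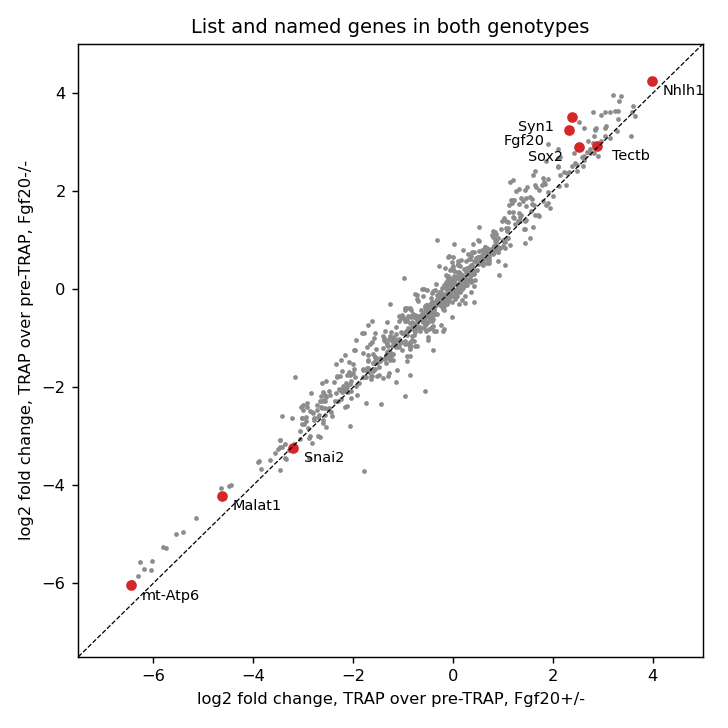
Log2 fold change of TRAP over pre-TRAP in mut (vertical) against het (horizontal) for list members and named genes tested in both, with the dashed line marking equal values and 8 genes in red. The points follow the line over the whole range, from mt-Atp6 (-6.04 in mut and -6.45 in het) to Nhlh1 (4.25 and 3.98).

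The experiments were also compared. The median of 42 of the 43 lists had the same sign in each experiment as in both together, the exception being the 5 sex-linked genes, and all 43 had the same sign in het. An interaction of experiment and method within mut called none of 23140 genes in edgeR, with 790 (3.41%) at an unadjusted p under 0.05. DESeq2 called 1, Eif4b, a translation initiation factor whose level ran from 130.9 to 1345 CPM over the TRAP libraries and from 214 to 910.4 CPM over the pre-TRAP libraries.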

How the data were processed

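RNA was sequenced from 24 pooled libraries of ventral otocyst, of which the 12 of Fgf20-/- carry the comparison. The deposited table holds whole-number read counts per gene for 53946 Ensembl gene identifiers. STAR, DESeq2 and the build GRCm38.p5 appear, with no tool versions, per the submitters' processing notes. How reads were counted, and whether strand was used, is not stated there. Libraries were made with the Clontech SMARTer kit, per the labels' protocols. Symbols were matched for 53274 identifiers.

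Counts were tested with edgeR 4.0.16 (limma 3.58.1, R 4.3.3) by quasi-likelihood F tests with TMM scaling, experiment as a covariate, and filterByExpr at a minimum count of 10. A gene could pass this filter through its TRAP or its pre-TRAP libraries alone. Adjusted p values are Benjamini-Hochberg over all genes tested, called under 0.05. SE is the log2 fold change divided by the root of F. The interaction of genotype and method used all 24 libraries. Levels are CPM with TMM factors (0.871 to 1.13 in mut). List levels are means of log2(CPM + 0.5) over all counted members, tested or not. Code was tested on simulated counts. Replicate pairs differed by more than sampling noise (chi-square per degree of freedom 26.3 to 222 over 34 pairs), so no libraries were merged.

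The members and the 43 gene lists were chosen with earlier results of these data known. Named genes are the 12 largest rises and 12 largest falls among called genes averaging 5 CPM or more whose direction held within each experiment, leaving out unnamed models and mitochondrial, ribosomal and histone genes; for each list its largest changes and highest members, and others where a count is described; and Rpl10a, Fgf20, Tectb and Sox2. Alternatives were other scalings, no filter, DESeq2 1.42.0, limma voom, no covariate, single experiments, a joint fit of all libraries, and leaving out each library. The set without TRAP libraries 4 and 6 was chosen after seeing the data.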

Additional observations from a re-analysis of the deposited data

Results flagged for a closer look

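Of 160 groups of library values examined, 10 had 1 library farther from the others than Dixon's test allows at the 95% level, and chance alone flags about 1 group in 20. TRAP library 6 was the high one in 4 of them. Its level was 4042 CPM for Col2a1 (median of the TRAP libraries 311.9), 371.3 CPM for Matn1 (median 64.8), 37.2 CPM for Sec61a1 (median 23.1) and 5.52 for the mean log2 level of the cell cycle list (median 4.92). For Matn1, Sec61a1 and the cell cycle list it lay between the other TRAP libraries and the pre-TRAP libraries, and for Col2a1 it lay above all 4 pre-TRAP libraries. TRAP library 13 was low for FGF ligands and receptors, with a mean log2 level of 1.77 against a median of 1.96. Among the 4 pre-TRAP libraries, 20 was high for Matn1 (657 CPM, median 467.5) and for the mural cell list (mean log2 level 2.40, median 2.14). Pre-TRAP library 18 was high for Eef1a2 (1.22 CPM, median 0.634) and for the presynapse list (2.13, median 2.01), and library 24 for the Schwann cell list (3.22, median 3.14).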

How the results depend on the processing

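No paired analysis was possible because the library numbers do not repeat across groups and the labels pair none of them. With experiment 1 alone 3534 genes were higher and 3753 lower, and with experiment 2 alone 3602 were higher; each holds 4 TRAP and 2 pre-TRAP libraries. Leaving out each library in turn gave 4581 to 5596 higher, 4956 to 6168 lower, 2373 to 2773 at least 2-fold higher and 2942 to 3373 at least 2-fold lower. Without TRAP libraries 4 and 6, chosen after seeing the data, 5662 were higher and 6428 lower. Other scalings put 45.7 to 51.7% of calls on the higher side and moved the median of all genes by at most 0.05. For the interaction of genotype and method, limma voom called 1 gene higher, Gata2, with 2287 genes at an unadjusted p under 0.05. For the interaction of experiment and method, 2 genes were called higher without the filter on low counts (Gm38384 and Gm43323), 1 by DESeq2 (Eif4b), and 0 to 1 when a library was left out (Olfr553, without pre-TRAP library 20). The cause of these changes was not tested. Of 243 genes named with a value, 195 kept their direction and their side of the threshold under every alternative, 41 lost their call under at least 1, 7 gained one, and none changed sign while called. Reads per library limit genes such as Fgf20 and Shh, which rest on few pre-TRAP reads.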

Other observations

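Genes were also grouped by the RNA class that RefSeq gives their symbol. Small nucleolar RNAs, which guide the modification of ribosomal RNA in the nucleolus, had 9 of 19 tested members lower and 1 higher (median log2 fold change -1.34). Protein-coding genes had 4247 of 14889 higher and 4066 lower (median 0.02), and pseudogenes 577 of 3991 higher and 574 lower (median 0.06).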
